A study of Homo sapiens and Mus musculus with 81 samples.

Results

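The genes described here are 42 enzymes and regulators of cholesterol and fatty acid synthesis that act with, or are switched on by, the sterol regulatory element binding proteins (SREBPs). They were chosen by gene symbol, under a rule that uses no measured value, although earlier results of these data were known, and each gene was read from its brightest probe set. All 42 were among the 17837 named genes of the human arrays. On the mouse arrays 41 of the 42 were found among 21931 named genes, since Acat2 was not matched, and mouse SCD is Scd1.

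Messenger RNA was measured on 81 arrays in 4 systems. HUH7 and PLC/PRF/5, a pair of human hepatoma lines, were transfected with 10 nM of an siRNA, a short duplex that silences a matching transcript, in Lipofectamine RNAiMAX, or mock transfected. Both human lines received an siRNA named RAD18, one of a pair with Mm in the name (Apob-Mm2 and Apob-Mm1) or one of 4 with Hs in the name, called human-named (APOB-Hs1, APOB-Hs2, APOB-Hs3 and APOB-Hs4), besides mock, with HUH7 collected at 6, 12, 24 and 48 h (32 arrays) and PLC/PRF/5 at 6, 12 and 48 h (24 arrays). Hepa1-6, a mouse hepatoma line, received APOB-Hs4, APOB-Hs1 or APOB-Hs3, or was mock transfected, and was collected at 6, 12, 24 and 48 h (16 arrays). Livers were taken 3 d after mice received 3 mg/kg of APOB-Hs1, APOB-Hs4 or APOB-Hs3 in lipid nanoparticles (3 livers per siRNA), and no untreated liver was analysed here. All transfected cells, mock included, saw the transfection procedure, and all livers had received an siRNA named for APOB. A treatment and time had 1 array, so the times of a treatment stood in for replicates in comparisons of siRNAs, and the treatments stood in for replicates in comparisons of times. Nothing in the labels says that arrays came from separate cultures, so the p-values measure the spread between arrays only.

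SREBPs are made as inactive precursors in the membrane of the endoplasmic reticulum, where SCAP escorts them and the INSIG proteins hold them back while sterols are plentiful. When sterols run low, SCAP carries the precursor to the Golgi, proteases release its active part, and this enters the nucleus and switches on the genes of lipid synthesis. SREBF2 encodes the form that mainly drives cholesterol synthesis, and SREBF1 encodes forms that mainly drive fatty acid synthesis, which liver also controls through LXR, an oxysterol receptor, and through the sugar-responsive factor MLXIPL, also called ChREBP.

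APOB was low under the human-named siRNAs, and RAD18 was low under its own siRNA. Against mock, APOB differed by -2.51 to -1.69 (log2 intensity, limma adjusted p 7.47e-06 to 0.00048) under the 4 human-named siRNAs in HUH7, by -3.27 to -2.54 in PLC/PRF/5 and by -2.64 to -2.32 under the 3 siRNAs in Hepa1-6. RAD18 differed by -1.98 in HUH7 and -3.25 in PLC/PRF/5 under its own siRNA. In HUH7, APOB differed by -1.27 under Apob-Mm1 (adjusted p 0.191) and by -0.81 under Apob-Mm2 (adjusted p 0.14), and neither passed the test. Median intensities were 31.75 to 35.39 on the human and 19.73 to 22.55 on the mouse arrays, and the residual spread of an array around the fitted model ran from 0.082 to 0.199 on the log2 scale, widest in PLC/PRF/5 with APOB-Hs2 at 48 h. Of the hepatocyte markers, ALB averaged 13.79 in HUH7 and 7.43 in PLC/PRF/5 (log2 intensity), and in Hepa1-6 it averaged 12.10 while TTR (3.09), APOC3 (3.29) and CPS1 (3.00) lay at the dim end of the array. At matched treatments and times, CPS1 (-6.06) and SERPINA1 (-0.15) were lower in HUH7 than in PLC/PRF/5, and APOA2 (0.03) did not pass. ALB, AHSG, TTR, APOC3, APOA1, TAT, TF and FGB were higher in HUH7, by 0.22 to 6.36. The files give no detection calls, so a low intensity is not known to be above background.

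The first question was how the genes of lipid synthesis behaved over the hours after transfection, whatever the treatment. More of them rose than fell in all 3 lines. At 48 h against 6 h, 26 of 42 genes were higher and 3 lower in HUH7 at an adjusted p under 0.05 in limma, where 29.5% of all genes were called, 16.5% as higher. In PLC/PRF/5 25 were higher and 2 lower (18.7% of all genes called, 12% as higher), and in Hepa1-6 31 of 41 were higher and 0 lower (17.2% called, 8.71% as higher). The median difference of these genes was 0.16 in HUH7, 0.25 in PLC/PRF/5 and 0.45 in Hepa1-6, against medians over all genes of 0.00, 0.01 and 0.00. Time after transfection, time in culture and growth cannot be told apart here. The rise was also seen in mock cells alone, where 36 of 42 genes in HUH7, 35 of 42 in PLC/PRF/5 and 37 of 41 in Hepa1-6 were higher at 48 h than at 6 h, beside 49.7%, 51.8% and 48.8% of all genes, with 1 array each and no test.

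**Figure D1:**
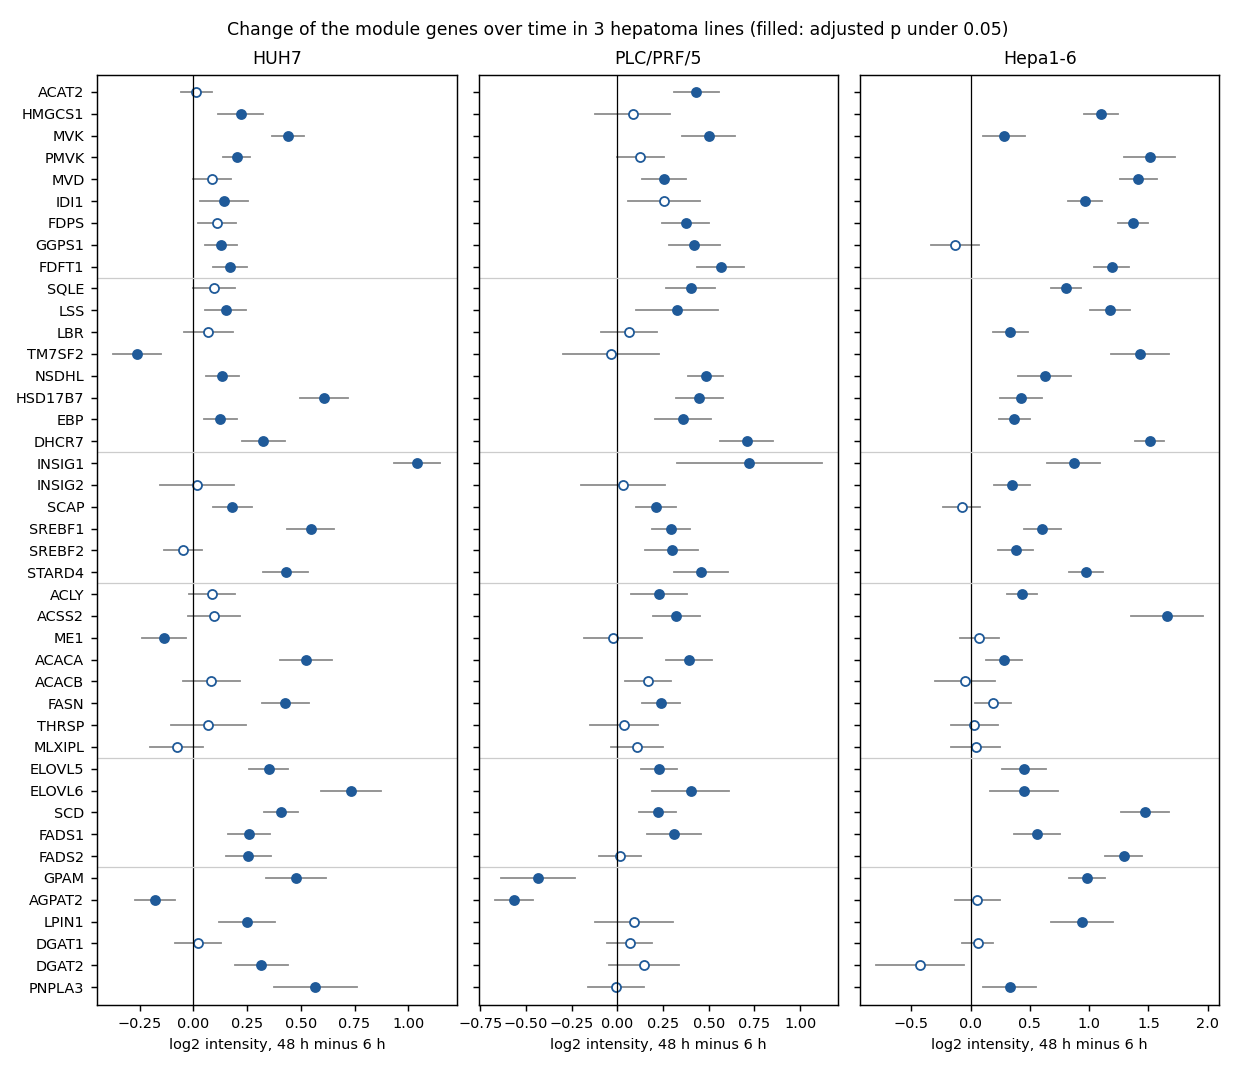
Difference in log2 intensity, 48 h minus 6 h, for each gene in HUH7, PLC/PRF/5 and Hepa1-6, with genes grouped by role from the mevalonate steps at the top to glycerolipid enzymes at the bottom. Points are limma estimates, horizontal lines their 95% confidence intervals, and filled points have an adjusted p under 0.05. Each panel has its own horizontal axis. Most filled points lie right of 0 in every line, with 26, 25 and 31 genes higher.

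On the brightest probe sets, the gene that rose most in HUH7 was INSIG1, which encodes the anchor that retains SREBPs and is itself an SREBP target. INSIG1 read 9.80, 10.53 and 10.65 (lowest, median and highest of 8 arrays, log2 intensity) at 48 h, against 8.97, 9.27 and 9.53 at 6 h. The ranges did not overlap, and INSIG1 was higher at 48 h under all 8 treatments, by 0.80 to 1.29. The estimated difference was 1.04 ± 0.053 (SE, adjusted p 6.95e-14). The other probe set of INSIG1 rose by 0.55, so the size and rank of its rise are uncertain. The next in size among the sterol branch were HSD17B7 (0.61), a ketosteroid reductase late in cholesterol synthesis, SREBF1 itself (0.55), MVK (0.44), the kinase of mevalonate, and STARD4 (0.43), a carrier of cholesterol between membranes. HSD17B7 read 9.11, 9.41 and 9.61 at 48 h, against 8.74, 8.79 and 8.89 at 6 h, and MVK read 8.85, 8.96 and 9.13 against 8.46, 8.53 and 8.63. Neither gene's ranges overlapped. SREBF1 read 8.10, 8.22 and 8.44 at 48 h, against 7.59, 7.72 and 7.78 at 6 h, again without overlap. Its other probe set rose by 0.29, so the size and rank of the SREBF1 rise are uncertain. SREBF2, by contrast, read 8.69, 8.81 and 8.99 at 48 h, against 8.81, 8.89 and 8.98 at 6 h, and did not pass the test (-0.05, 95% interval -0.14 to 0.04).

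The promoters of some of the genes that moved most in HUH7 are shown for the binding motifs that SREBPs and their partner NF-Y are known to use. The sequences are RefSeq's for GRCh38.p14 and cover the 250 bases before the start of the transcript, read in the direction of the gene. INSIG1, HSD17B7, SREBF1 and MVK are shown as the sterol branch genes with the largest change on their brightest probe sets. SREBF2, which did not pass the test, was added after its motif was seen. Capitals mark letters of the NF-Y box CCAAT, which reads as ATTGG on the opposite strand, and of the sterol element TCACNCCAC.
INSIG1, chr7:155297628-155297877, plus strand: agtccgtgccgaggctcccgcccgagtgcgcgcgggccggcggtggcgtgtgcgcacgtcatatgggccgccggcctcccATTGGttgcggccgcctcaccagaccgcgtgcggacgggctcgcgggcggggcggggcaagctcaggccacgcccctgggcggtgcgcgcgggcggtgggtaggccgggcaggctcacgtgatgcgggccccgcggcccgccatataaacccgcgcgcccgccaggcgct
HSD17B7, chr1:162790452-162790701, plus strand: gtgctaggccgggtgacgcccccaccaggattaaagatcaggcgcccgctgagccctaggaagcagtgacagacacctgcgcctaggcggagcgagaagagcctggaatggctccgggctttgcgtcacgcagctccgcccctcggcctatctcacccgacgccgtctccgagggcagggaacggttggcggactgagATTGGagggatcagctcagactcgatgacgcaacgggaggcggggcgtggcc
SREBF1, chr17:17836987-17837236, minus strand: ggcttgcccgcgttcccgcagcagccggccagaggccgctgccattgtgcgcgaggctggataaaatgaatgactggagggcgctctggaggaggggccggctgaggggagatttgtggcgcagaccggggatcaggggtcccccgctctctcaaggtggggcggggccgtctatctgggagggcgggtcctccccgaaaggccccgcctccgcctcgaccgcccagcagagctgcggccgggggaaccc
MVK, chr12:109573544-109573793, plus strand: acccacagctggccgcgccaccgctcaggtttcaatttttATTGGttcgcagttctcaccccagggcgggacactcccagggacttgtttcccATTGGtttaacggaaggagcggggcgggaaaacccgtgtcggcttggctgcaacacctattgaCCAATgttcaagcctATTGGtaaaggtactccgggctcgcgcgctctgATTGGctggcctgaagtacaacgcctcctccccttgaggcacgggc
SREBF2, chr22:41832855-41833104, plus strand: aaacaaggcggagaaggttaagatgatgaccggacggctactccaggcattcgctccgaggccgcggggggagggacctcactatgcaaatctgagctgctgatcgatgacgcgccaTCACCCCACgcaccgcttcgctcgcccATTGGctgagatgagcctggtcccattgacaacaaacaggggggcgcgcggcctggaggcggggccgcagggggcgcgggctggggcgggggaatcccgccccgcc
INSIG1 had 1 box at -170 from the start and HSD17B7 had 1 at -52. MVK had 5, at -210, -157, -94, -79 and -46. SREBF2 had the sterol element at -133, followed by an NF-Y box at -106, and the window used for SREBF1 held neither motif. Only 1 start per gene was read, so promoters at other starts of a gene were not searched.

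The windows of 35 of the 42 genes were in the RefSeq table, and motifs were searched on both strands. CCAAT lay in 65.0% of 20 sterol branch promoters and in 33.3% of 15 fatty acid branch promoters, beside 33% of 27305 promoters of all genes. The Sp1 box GGGCGG lay in 80.0% of the 35, beside 42.3% of all, and the E-box CACGTG in 8.6%, beside 6.5%. The sterol element in this strict form lay in 1 of the 35, that of SREBF2, beside 0.9% of all promoters. These are matches of letters, and none was tested for binding.

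The mevalonate enzymes in HUH7 moved less than INSIG1. HMGCS1, which makes the precursor of mevalonate, read 11.94, 12.32 and 12.51 at 48 h, against 11.79, 12.05 and 12.18 at 6 h, and rose by 0.22 ± 0.051 (SE, adjusted p 0.00138) with overlapping ranges. Of the 9 mevalonate genes 6 rose, and of the 8 enzymes of the later sterol steps 5 rose. DHCR7, the reductase that finishes cholesterol in one arm of the pathway, rose by 0.33. TM7SF2, a sterol reductase earlier in the pathway, was the sterol gene that fell (-0.26). LSS, FDFT1 and IDI1 rose by 0.15, 0.17 and 0.14, while SQLE (0.10, adjusted p 0.132) and FDPS (0.11, adjusted p 0.0578) did not pass. The call of IDI1 was lost in 7 of 13 alternatives and that of LSS in 3 of 13, each by leaving out 1 treatment.

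On the fatty acid side of HUH7, all 5 elongation and desaturation genes rose. ELOVL6, which extends palmitate, read 7.46, 7.85 and 8.04 at 48 h, against 6.96, 7.04 and 7.28 at 6 h, a rise of 0.73 ± 0.067 (SE, adjusted p 2.94e-09) without overlap. The other probe set of ELOVL6, about as bright, rose by 0.37. SCD, the desaturase that makes oleate, read 11.09, 11.38 and 11.52 at 48 h, against 10.88, 10.94 and 11.03 at 6 h, and rose by 0.41. FASN, the fatty acid synthase, read 9.69, 9.95 and 10.14 at 48 h, against 9.30, 9.52 and 9.73 at 6 h, and rose by 0.43, with overlapping ranges. ACACA, the carboxylase that supplies FASN, rose by 0.52. The lipid droplet protein PNPLA3 (0.57) and GPAM (0.48), which starts glycerolipid synthesis, rose too, while AGPAT2 (-0.18), the next acyltransferase in that path, and ME1 (-0.14), a malic enzyme that yields NADPH, fell. The call of ME1 was lost when any of 5 treatments was left out, and its change was -0.086 (adjusted p 0.162) without Apob-Mm2.

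In PLC/PRF/5, of 23 sterol branch genes 17 rose and 0 fell, and of 19 fatty acid branch genes 8 rose and 2 fell. In HUH7 those counts were 15 and 1 of 23, and 11 and 2 of 19. DHCR7 read 9.80, 10.17 and 10.58 (lowest, median and highest of 8 arrays) at 48 h, against 9.40, 9.47 and 9.60 at 6 h, a rise of 0.71 ± 0.068 (SE, adjusted p 7.28e-07) with no overlap. FDFT1, the squalene synthase, read 10.78, 11.06 and 11.41 at 48 h, against 10.50, 10.51 and 10.57 at 6 h, and rose by 0.57. MVK (0.50), NSDHL (0.48), STARD4 (0.46), HSD17B7 (0.45) and ACAT2 (0.43), the thiolase at the head of the pathway, followed.

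INSIG1 in PLC/PRF/5 read 10.07, 10.92 and 12.42 at 48 h, against 9.95, 10.38 and 10.42 at 6 h. Its mean rise of 0.72 ± 0.188 (SE, adjusted p 0.0101) hid a wide spread between treatments, from -0.15 under APOB-Hs4 to 2.03 under APOB-Hs2, and 6 of 8 treatments were higher at 48 h. HMGCS1 read 10.11, 10.74 and 11.38 at 48 h, against 10.52, 10.64 and 10.78 at 6 h, and did not pass the test (0.08, adjusted p 0.639, 95% interval -0.12 to 0.29). SREBF2 read 7.73, 8.08 and 8.40 at 48 h, against 7.69, 7.78 and 7.87 at 6 h, and rose by 0.30 ± 0.069 (SE, adjusted p 0.00436). SREBF1 read 7.29, 7.45 and 7.54 at 48 h, against 6.97, 7.15 and 7.20 at 6 h, and also rose by 0.30 (0.15 on its other probe set). FASN rose by 0.24, at 9.67, 9.87 and 10.09 at 48 h, against 9.53, 9.63 and 9.73 at 6 h. SCD rose by 0.22, at 11.43, 11.57 and 11.87 at 48 h, against 11.32, 11.36 and 11.45 at 6 h.

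The genes that fell in PLC/PRF/5 both belong to glycerolipid synthesis. AGPAT2 read 8.88, 8.98 and 9.24 at 48 h, against 9.52, 9.56 and 9.62 at 6 h, and fell by 0.57, with no overlap. It fell under all 8 treatments, by 0.32 to 0.71. GPAM read 7.66, 8.63 and 9.02 at 48 h, against 8.90, 9.01 and 9.12 at 6 h, and fell by 0.43. None of the other 4 glycerolipid genes passed the test in PLC/PRF/5, with estimates from -0.01 for PNPLA3 to 0.14 for DGAT2.

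In Hepa1-6 the rise covered 7 of 8 mevalonate genes and the 8 enzymes of the later sterol steps, among which TM7SF2 rested on 1 of its probe sets. ACSS2, which makes acetyl-CoA from acetate, read 6.66, 7.28, 6.14 and 6.97 at 48 h under APOB-Hs1, under APOB-Hs3, under APOB-Hs4 and in mock cells, against 4.94, 5.22, 5.15 and 5.12 at 6 h. It rose by 1.66 ± 0.142 (SE, adjusted p 2.12e-06), the largest estimate among the 41 genes. DHCR7 read 9.82, 9.80, 9.94 and 9.85 at 48 h in the same order, against 8.29, 8.32, 8.39 and 8.36 at 6 h, and rose by 1.51 ± 0.057. PMVK, the kinase after MVK, read 7.62, 8.15, 8.17 and 8.31 at 48 h, against 6.64, 6.41, 6.64 and 6.52 at 6 h, and also rose by 1.51. All 48 h arrays lay above all 6 h arrays for each of the 3 genes.

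MVD (1.42), FDPS (1.37), FDFT1 (1.19), LSS (1.18) and HMGCS1 (1.1) carry acetate to lanosterol and rose with them. HMGCS1 read 8.87, 9.08, 8.88 and 9.0 at 48 h, against 7.89, 7.80, 7.82 and 7.92 at 6 h. TM7SF2 rose by 1.43 on the probe set that was brightest over all mouse arrays. Its other probe set, the brighter within Hepa1-6, rose by 0.07 (adjusted p 0.599), so the rise of TM7SF2 is uncertain. SCD read 10.93, 11.52, 11.35 and 11.54 at 48 h, against 9.61, 9.97, 10.01 and 9.86 at 6 h, a rise of 1.47, and FADS2, a desaturase of polyunsaturated fatty acids, rose by 1.29. INSIG1 read 8.58, 9.26, 8.97 and 8.89 at 48 h, against 7.90, 8.06, 8.26 and 8.0 at 6 h, and rose by 0.87. FASN did not pass, at 11.15, 11.19, 11.04 and 11.29 at 48 h, against 10.88, 10.98, 11.01 and 11.04 at 6 h (0.19, adjusted p 0.0866). SREBF1 rose by 0.60 and SREBF2 by 0.38. DGAT2 (-0.43, adjusted p 0.116), which makes triglyceride, had the lowest estimate and did not pass.

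**Figure D2:**
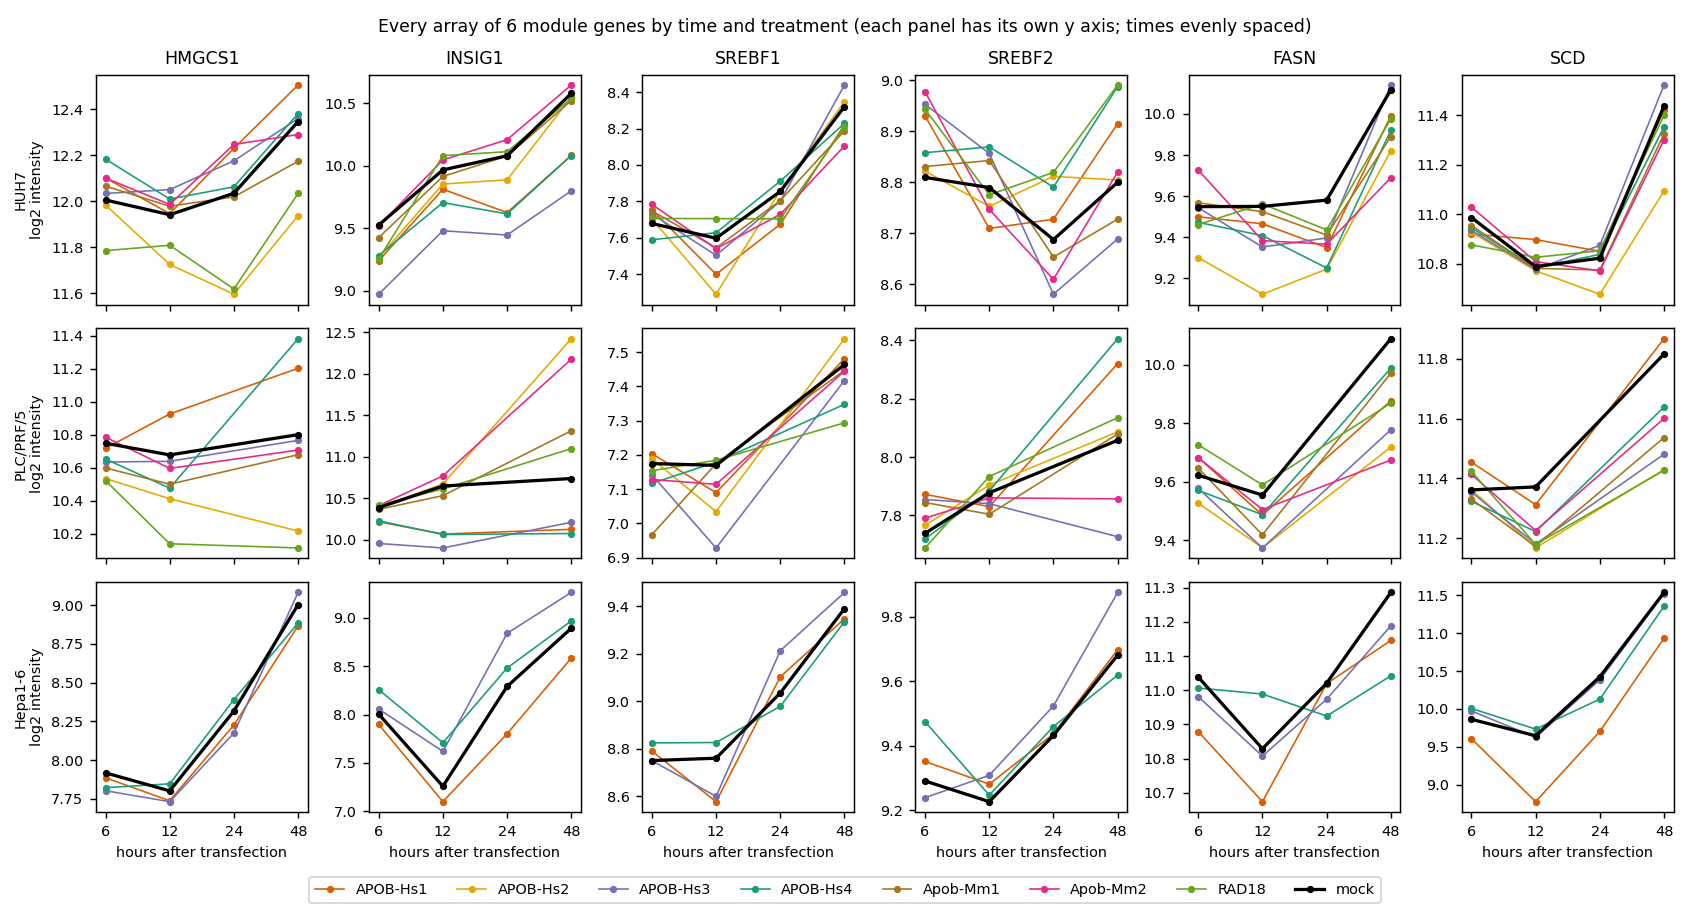
Log2 intensity of HMGCS1, INSIG1, SREBF1, SREBF2, FASN and SCD on every array, by hours after transfection (times evenly spaced), in HUH7 (top row), PLC/PRF/5 (middle) and Hepa1-6 (bottom). Each point is 1 array, each coloured line an siRNA, mock is black, and each panel has its own vertical axis. In Hepa1-6 the arrays of all 6 genes but FASN separate at 48 h from 6 h, and in PLC/PRF/5 INSIG1 at 48 h spreads from 10.07 to 12.42.

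The time steps placed most of the rise late. In HUH7, 12 h against 6 h gave 8 genes higher and 6 lower (18.6% of all genes called), 24 h against 12 h gave 3 higher and 7 lower (12.8%), and 48 h against 24 h gave 32 higher and 0 lower (12.4%, 8.1% as higher). Between 6 and 12 h INSIG1 (0.55), HSD17B7 (0.44), STARD4 (0.30) and MVK (0.27) had already risen, while GPAM (-0.54), TM7SF2 (-0.33), FADS1 (-0.24), SREBF1 (-0.19), SCD (-0.14) and ACAT2 (-0.12) fell. Between 24 and 48 h the largest rises were of GPAM (0.85), FADS1 (0.57), FASN (0.57), SCD (0.55), INSIG1 (0.47), SREBF1 (0.47) and FADS2 (0.45). SREBF1 thus had medians of 7.72, 7.54, 7.80 and 8.22 at 6, 12, 24 and 48 h, and GPAM had medians of 9.18, 8.71, 8.82 and 9.72. In PLC/PRF/5 12 h against 6 h gave 1 gene higher, HSD17B7 (0.32), and 0 lower (3.5% of all genes called), and 48 h against 12 h gave 22 higher and 2 lower (13%).

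Hepa1-6 dipped first. At 12 h against 6 h 7 genes were lower and 0 higher, where 0.775% of all genes were called, 0.31% as lower. They were ELOVL6 (-0.65), INSIG1 (-0.63), IDI1 (-0.60), STARD4 (-0.40), DHCR7 (-0.38), SQLE (-0.32) and FDPS (-0.27). At 24 h against 12 h 16 were higher and 0 lower (0.511%, 0.274% as higher), and at 48 h against 24 h 23 were higher and 0 lower (3.67%, 1.85% as higher). Mock INSIG1 read 8.0, 7.26, 8.29 and 8.89 at 6, 12, 24 and 48 h, and mock DHCR7 read 8.36, 7.99, 8.79 and 9.85. FDPS followed the same course in mock cells, at 9.87, 9.66, 10.36 and 11.28.

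Neighbouring lists were read beside the same shares of all genes called higher (16.5% in HUH7, 12% in PLC/PRF/5 and 8.71% in Hepa1-6). Of 8 further genes of the sterol pathway, 3 rose and 1 fell at 48 h against 6 h in HUH7 (ACSL3 0.35, NPC1L1 0.26 and TMEM97 0.26 against SC5D -0.21), 4 rose in PLC/PRF/5, and 5 rose in Hepa1-6, led by the demethylation enzymes MSMO1 (0.77) and CYP51A1 (0.68) and the desaturase SC5D (0.73). Of 7 LXR targets 3 rose in HUH7 (MYLIP 0.63, ABCA1 0.50 and NR1H3 0.43), 0 in PLC/PRF/5, and 3 in Hepa1-6, where the cholesterol exporter ABCA1 rose by 2.04 and ABCG1 by 0.97. Of 5 ChREBP targets 1 rose in HUH7 (TXNIP 0.45), 2 in PLC/PRF/5 (TXNIP 0.79 and ARRDC4 0.53) and 0 in Hepa1-6. The summed intensity of 11 hepatocyte markers was 67084.7 to 77459.6 at 48 h, against 75959.7 to 82677.5 at 6 h in HUH7, and 35731.9 to 52888.2 against 52146.4 to 53999.2 in PLC/PRF/5. In Hepa1-6 the sum of 10 was 6259.3 to 8328.2 at 48 h, against 5165.2 to 5534.3 at 6 h. Their part in the change of the lipid genes was not tested.

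The next comparison asked whether the change over time differed between the human lines. With matched times, 13 of 42 genes differed in their 48 h minus 6 h change (11.7% of all genes called). Sterol genes changed less in HUH7 than in PLC/PRF/5, namely ACAT2 (-0.42 ± 0.072 SE, adjusted p 0.000114), FDFT1 (-0.40), DHCR7 (-0.38), SREBF2 (-0.35), NSDHL (-0.35), SQLE (-0.30), GGPS1 (-0.29) and FDPS (-0.26). GPAM (0.91 ± 0.126 SE, adjusted p 4.6e-06), PNPLA3 (0.57), AGPAT2 (0.39), SREBF1 (0.25) and FADS2 (0.24) differed the other way. The calls of FADS2 and SREBF1 were lost in 7 and 5 of 15 alternatives, that of SREBF1 also with quantile normalization (adjusted p 0.054), and those of FDPS, GGPS1 and FDFT1 in 3, 2 and 1. GPAM rose in HUH7 and fell in PLC/PRF/5, and AGPAT2 fell less in HUH7. The difference for INSIG1, 0.32 (adjusted p 0.384, 95% interval -0.11 to 0.74), did not pass the test.

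Each siRNA was then set against mock within its line. All siRNAs of a line share the same mock arrays. Over 7 siRNAs and 42 genes, HUH7 gave 8 calls, all lower than mock, and INSIG1 gave 3 of them. Over the 7 contrasts together the 8 calls were 2.72% of 294 tests of these genes, against 1.57% over all genes, and as lower calls they compare with 0.932% over all genes. APOB-Hs2 gave 4 of the 8 (9.52% of the 42 genes). By siRNA the background was 2.53% of all genes called under APOB-Hs1, 2.42% under APOB-Hs2, 2.22% under APOB-Hs3, 1.63% under APOB-Hs4, 1.29% under Apob-Mm2, 0.897% under RAD18 and 0% under Apob-Mm1. As lower, 1.82%, 1.21%, 1.49% and 0.544% of all genes were called under APOB-Hs1, APOB-Hs2, APOB-Hs3 and APOB-Hs4, and 0.768% and 0.695% under Apob-Mm2 and RAD18. Under Apob-Mm1 limma called 0 of all genes, while 632 had an unadjusted p under 0.05 and 0 of these were among the 42.

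INSIG1 in HUH7 read 8.97, 9.48, 9.45 and 9.80 under APOB-Hs3 at 6, 12, 24 and 48 h, against 9.53, 9.97, 10.08 and 10.58 in mock. It differed from mock in the same direction at each time, by -0.78 to -0.49, with a mean of -0.61 ± 0.075 (SE, adjusted p 2.8e-05). Under APOB-Hs1 INSIG1 read 9.24, 9.81, 9.63 and 10.08, a mean difference from mock of -0.35 (adjusted p 0.00702), and under APOB-Hs4 9.28, 9.71, 9.62 and 10.08, a difference of -0.37 (adjusted p 0.0113). INSIG1 was lower than mock at every time under these 3 siRNAs. Under APOB-Hs2 it read 9.26, 9.85, 9.89 and 10.55, also below mock at each time but close to it at 48 h, and was not called. The 4 human-named siRNAs together, set against Apob-Mm1, Apob-Mm2 and RAD18 with no use of mock, gave 1 call among the 42, INSIG1 (-0.36, adjusted p 5e-06), where 3.89% of all genes were called, 1.73% as lower.

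**Figure D3:**
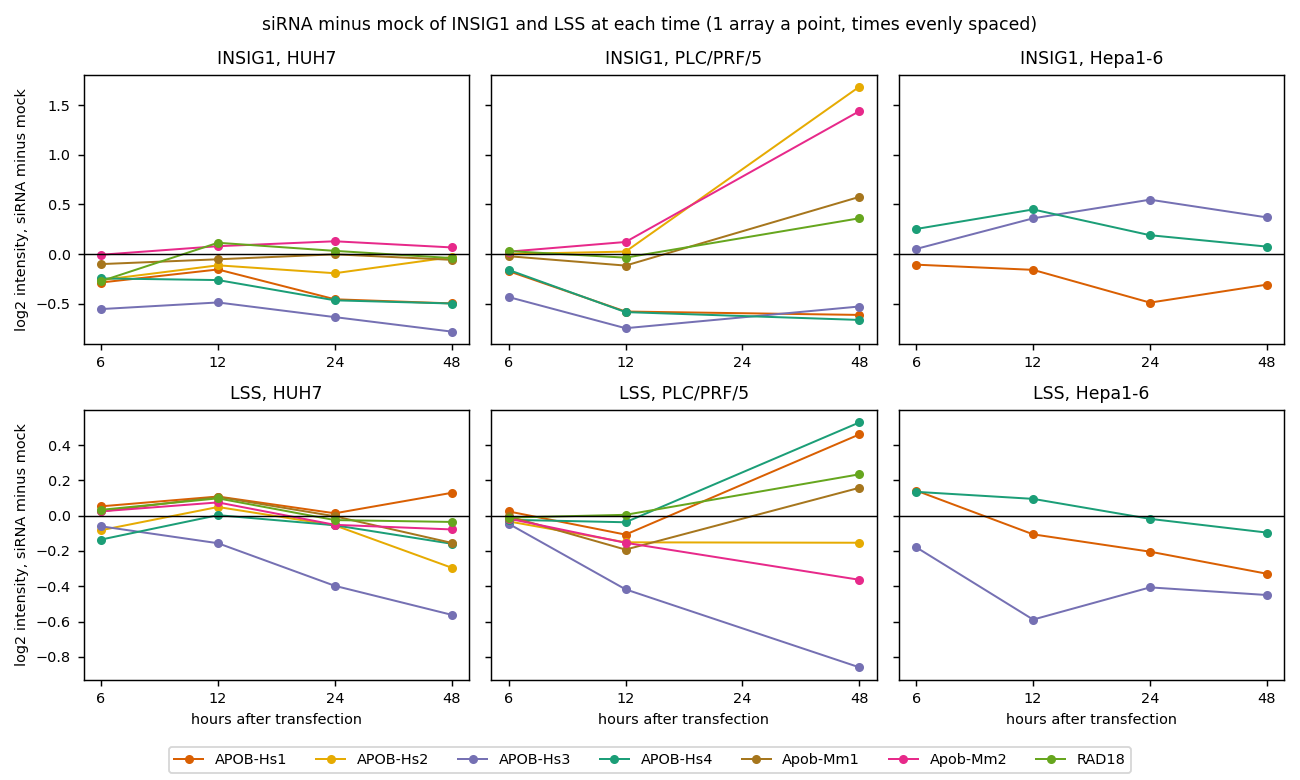
Log2 intensity of INSIG1 (top row) and LSS (bottom row), siRNA minus mock of the same time, in HUH7, PLC/PRF/5 and Hepa1-6. Each point is 1 array minus the mock array of that time, each colour an siRNA, and times are evenly spaced. INSIG1 lies below 0 at all times under APOB-Hs1, APOB-Hs3 and APOB-Hs4 in both human lines, and LSS lies below 0 under APOB-Hs3 in all 3 lines.

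APOB-Hs2 lowered other genes in HUH7. GPAM differed from mock by -0.27, -0.77, -0.74 and -0.56 at 6, 12, 24 and 48 h, with a mean of -0.59 (adjusted p 0.000904). ACLY, which cleaves citrate to acetyl-CoA, differed by -0.34 (adjusted p 0.012), FASN by -0.33 (adjusted p 0.0145) and HMGCS1 by -0.27 (adjusted p 0.0417). LSS, the cyclase that forms lanosterol, differed from mock by -0.06, -0.16, -0.40 and -0.56 at the 4 times under APOB-Hs3 (-0.29, adjusted p 0.0126). In the same cells MSMO1, a neighbouring sterol enzyme, differed by -0.97 (adjusted p 0.00115). When 1 time was left out, the HUH7 count ran from 1 call, without 24 h, to 14 calls, without 6 h, and INSIG1 under APOB-Hs3 was called each time. Of 9 alternatives, the call was lost in 4 for HMGCS1, 3 each for ACLY and LSS, 2 each for FASN and for INSIG1 under APOB-Hs1 and APOB-Hs4, and 1 for GPAM.

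In PLC/PRF/5 0 of the 42 genes passed against mock under any of the 7 siRNAs, where 0% to 0.6% of all genes were called; at an unadjusted p under 0.05 the 7 siRNAs gave 1 to 7 genes each. INSIG1 differed from mock by -0.17, -0.58 and -0.61 at 6, 12 and 48 h under APOB-Hs1, by -0.43, -0.75 and -0.53 under APOB-Hs3 and by -0.16, -0.58 and -0.66 under APOB-Hs4. Under APOB-Hs2 it differed by 0.00, 0.02 and 1.68, and under Apob-Mm2 by 0.02, 0.12 and 1.44, so the high INSIG1 arrays at 48 h were those of APOB-Hs2 and Apob-Mm2. For INSIG1, human-named siRNAs differed from the other 3 by -0.50 (adjusted p 0.257), with 0.392% of all genes called, and by -0.61 (adjusted p 0.049) without the widely spread APOB-Hs2 array of 48 h, an alternative chosen after seeing the data. LSS under APOB-Hs3 differed from mock by -0.05, -0.42 and -0.86. The largest estimates were DGAT2 under APOB-Hs2 (0.57, adjusted p 0.15), ACLY under APOB-Hs2 (-0.48, adjusted p 0.121) and LBR under APOB-Hs3 (-0.47, adjusted p 0.132), none past the test. A test of whether the siRNA effects differed between HUH7 and PLC/PRF/5 called 0 of the 42 genes for each of the 7 siRNAs, with 0% to 0.0112% of all genes called and 0 to 5 of the 42 at an unadjusted p under 0.05.

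In Hepa1-6 3 calls were made, all lower than mock, where 0.766% of all genes were called under APOB-Hs1, 0.588% under APOB-Hs3 and 1.19% under APOB-Hs4. As lower, these shares were 0.652%, 0.543% and 0.675%. Under APOB-Hs1 ELOVL6 read 8.08, 6.93, 7.86 and 8.49 at 6, 12, 24 and 48 h, against 8.55, 8.11, 8.75 and 9.31 in mock, a difference of -0.84 (adjusted p 0.00589). SCD read 9.61, 8.78, 9.70 and 10.93, against 9.86, 9.65, 10.42 and 11.54 in mock, a difference of -0.61 (adjusted p 0.00486). ELOVL6 makes the stearate that SCD desaturates. Under APOB-Hs3 LSS read 8.17, 7.66, 8.39 and 9.32, against 8.35, 8.25, 8.80 and 9.77 in mock, a difference of -0.41 (adjusted p 0.0282). LSS was thus called lower under APOB-Hs3 in HUH7 and in Hepa1-6, each against its own mock. The Hepa1-6 call of LSS was lost in 4 of 8 alternatives, among them the mean of all probe sets (-0.22, adjusted p 0.254). INSIG1 in Hepa1-6 differed from mock by -0.11, -0.16, -0.49 and -0.31 under APOB-Hs1, below mock at each time as in the human lines. Under APOB-Hs3 it differed by 0.05, 0.36, 0.55 and 0.37, above mock at each time, and neither siRNA gave a call. Whether these differ from the human lines was not tested. The 3 calls became 9 without 6 h and 0 without 24 h or without 48 h. They became 0 with the mean of all probe sets, where SCD differed by -0.27 and ELOVL6 by -0.47 under APOB-Hs1. The mean of all siRNAs against mock called 0 of these genes in HUH7 (0.207% of all genes), PLC/PRF/5 (0.00561%) and Hepa1-6 (0.0365%), with 5, 3 and 4 at an unadjusted p under 0.05.

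The levels in the human lines were compared at matched treatments and times. HUH7 was higher than PLC/PRF/5 in 26 of 42 genes and lower in 12, in a comparison that called 84.9% of all genes, 36.1% as higher, and the median difference was 0.30 against -0.07 over all genes. FADS2 averaged 9.38 ± 0.20 in HUH7 (SD, n = 32) and 6.35 ± 0.12 in PLC/PRF/5 (SD, n = 24), a matched difference of 3.10. DGAT2 (1.79), PNPLA3 (1.58), HMGCS1 (1.43), MVD (1.40), EBP (1.39), DHCR7 (1.31) and AGPAT2 (1.11) were also higher in HUH7. HMGCS1 read 11.60, 12.03 and 12.51 (lowest, median and highest) in HUH7, against 10.11, 10.64 and 11.38 in PLC/PRF/5, with no overlap. SREBF2 (0.93) and SREBF1 (0.61) were higher in HUH7 as well, but the other probe set of SREBF1 differed by 0.06, so the size of its difference is uncertain. All 6 glycerolipid genes were higher in HUH7 too. Of these, GPAM (0.33) lost its call with the mean of all probe sets (0.20, adjusted p 0.0951) and was -0.049 (adjusted p 0.495) without 48 h.

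Lower in HUH7 were TM7SF2 (-0.89), INSIG1 (-0.73), NSDHL (-0.56), ELOVL5 (-0.52), SCD (-0.37), PMVK (-0.30), LBR (-0.28) and HSD17B7 (-0.27). FASN (-0.03), ELOVL6 (-0.07), MLXIPL (-0.01) and THRSP (0.00) did not pass, with 95% intervals between -0.17 and 0.09. THRSP averaged 4.61 over the human arrays and is not known to be above background, so its interval cannot show equal expression. For ELOVL6 a second probe set differed by 0.87, and for LSS the probe sets differed in sign (0.12 on the brightest and -0.55 on the other), so these are uncertain. The hepatocyte marker sums were 67084.7 to 82677.5 in HUH7 and 35731.9 to 53999.2 in PLC/PRF/5, although CPS1 among these markers was lower in HUH7 (-6.06). The part of the markers in these differences was not tested.

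**Figure D4:**
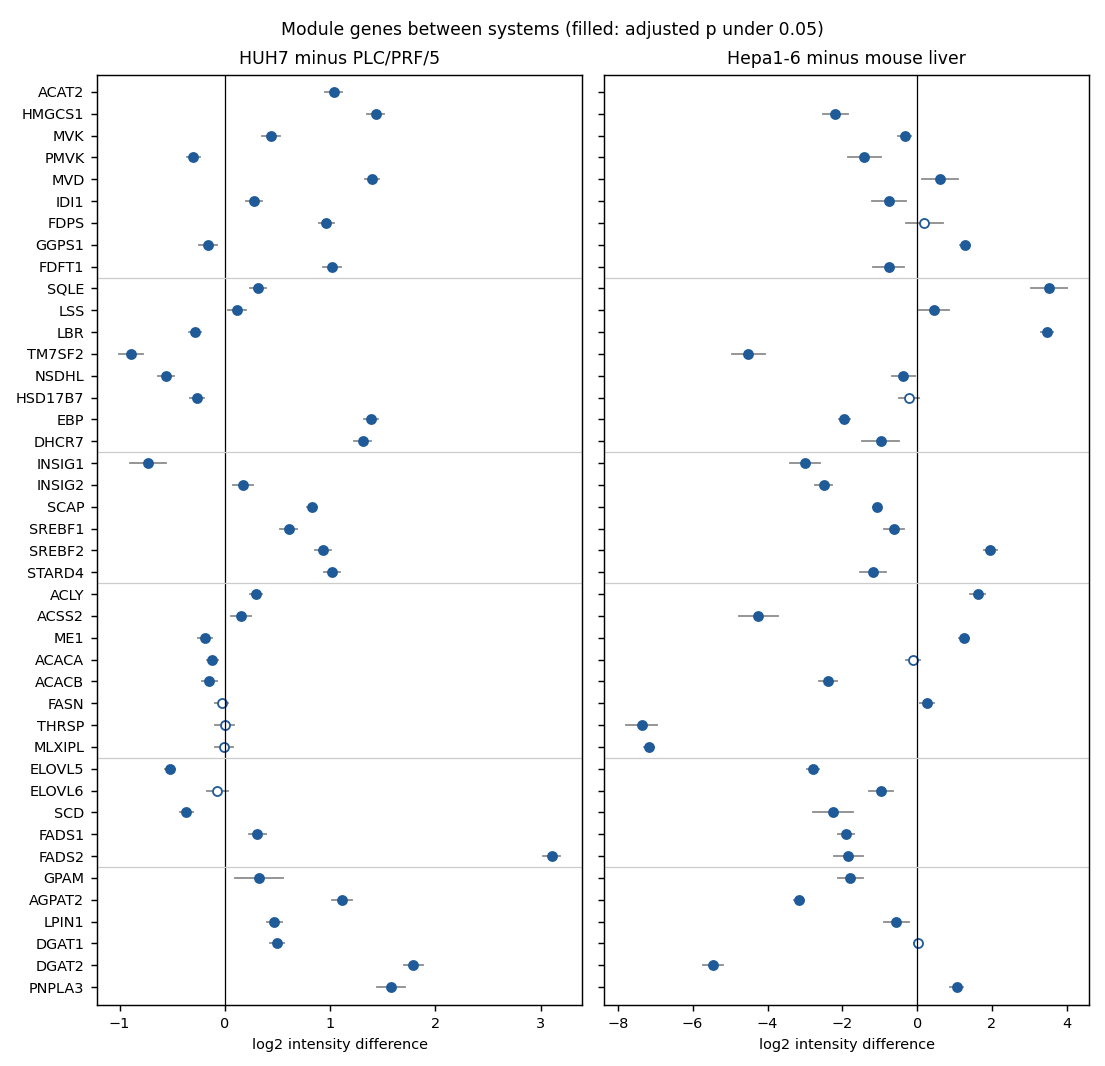
Differences in log2 intensity for each gene, HUH7 minus PLC/PRF/5 (left) and Hepa1-6 minus mouse liver (right), each panel with its own horizontal axis. Points are limma estimates, horizontal lines their 95% confidence intervals, and filled points have an adjusted p under 0.05. FADS2 stands farthest right on the left panel at 3.10, and on the right panel the positions of THRSP and MLXIPL, at the dim end of the Hepa1-6 arrays, are bounds and not sizes.

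Hepa1-6 was then set against mouse liver, the tissue that hepatoma lines stand in for. Across the same 3 siRNAs, 27 of 41 genes were lower in Hepa1-6 and 10 higher, in a comparison that called 83.5% of all genes, 26.9% as lower. The differences leave out the mock arrays of Hepa1-6, while the levels given for Hepa1-6 below are over all its 16 arrays, mock included. The median was -0.97, against 0.23 over all genes. After quantile normalization the split was 30 lower and 7 higher, and the median of all genes was 0.06. Time, dose, delivery, culture and cell mix differ between the systems and cannot be told apart, and in these bulk samples fewer cells of a type and less RNA per cell cannot be told apart either.

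Regulators of fatty acid synthesis were among the genes lower in Hepa1-6. THRSP, a lipogenic regulator of hepatocytes, was at 3.00 to 3.41 on 16 Hepa1-6 arrays, against 9.24 to 11.93 in 9 livers. MLXIPL was at 3.26 to 3.72 in Hepa1-6, against 10.51 to 10.84 in liver. Both lay at the dim end of the Hepa1-6 arrays and are not known to be above background there, so the sizes of their differences are bounds and are not ranked. DGAT2 (-5.46), ACSS2 (-4.24), AGPAT2 (-3.16), INSIG1 (-3.01), ELOVL5 (-2.79), SCD (-2.26) and HMGCS1 (-2.19) were also lower. The other probe set of SCD differed by -0.3, so the size of its difference is uncertain. TM7SF2 differed by -4.52 on its brightest probe set but by 1.68 on the other. INSIG1 read 7.10, 8.16 and 9.26 (lowest, median and highest) in Hepa1-6, against 11.01, 11.19 and 11.55 in liver. SREBF1 was lower too (-0.62), but differed by -0.224 (adjusted p 0.214) and was not called with the 48 h arrays of Hepa1-6 only. All 7 LXR targets were lower as well.

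SQLE, the oxygenase that opens the sterol part of the pathway, went the other way. It read 10.74, 11.28 and 12.05 in Hepa1-6, against 6.94, 7.51 and 9.17 in liver, higher by 3.53, and its 4 probe sets ranged from 3.14 to 3.92. LBR (3.48), a sterol reductase that also anchors chromatin at the nuclear envelope, SREBF2 (1.95), ACLY (1.62), GGPS1 (1.28), ME1 (1.24) and PNPLA3 (1.05) were higher as well. The 4 probe sets of GGPS1 ranged from -0.24 to 1.8, so its difference is uncertain. PNPLA3 in liver, at 3.30 to 3.81, lay at the dim end too, so its difference is a bound. FASN (0.26) and LSS (0.45) were higher in the fit and turned negative after quantile normalization (-0.07 and -0.21, neither past the test). The summed hepatocyte markers were 4136.5 to 8328.2 in Hepa1-6 and 133101.5 to 141285.7 in liver. Sums of Kupffer cell markers were 177.3 to 228.4 against 1557.7 to 2968.8, of liver endothelial markers 82.6 to 109.8 against 1884.7 to 2960.5, and of stellate cell markers 54.6 to 69.3 against 1661.3 to 2572. All 4 measured markers of cycling cells were higher in Hepa1-6 (median 5.18). The part of these cell types in the differences was not tested.

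In liver the siRNAs could be compared only with one another, and the 3 contrasts share livers. APOB-Hs1 against APOB-Hs4 gave 1 call among 41 genes (0.565% of all genes called). THRSP read 9.83, 9.24 and 9.73 with APOB-Hs1, against 10.45, 11.93 and 11.62 with APOB-Hs4, a difference of -1.73 ± 0.302 (SE, adjusted p 0.0367). All 3 APOB-Hs1 livers lay below all 3 APOB-Hs4 livers. The APOB-Hs3 livers read 10.98, 10.88 and 10.89, and APOB-Hs1 against APOB-Hs3 gave -1.32 for THRSP (adjusted p 0.169). The THRSP call was lost in 8 of 14 alternatives, among them quantile normalization.

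APOB-Hs1 against APOB-Hs3 gave 0 calls (0.0775% of all genes called, 6 of the 41 at an unadjusted p under 0.05), and APOB-Hs4 against APOB-Hs3 gave 0 calls (0.0866%, 5 at an unadjusted p under 0.05). LSS read 8.91, 8.2 and 8.34 with APOB-Hs4, against 8.26, 7.62 and 7.35 with APOB-Hs3 (0.74, adjusted p 0.495), and 8.59, 8.19 and 8.2 with APOB-Hs1. The APOB-Hs3 livers had the lowest mean for LSS, but overlapped both other groups. INSIG2, the second anchor of SREBPs, read 12.08, 11.88 and 11.85 with APOB-Hs1, against 11.70, 10.76 and 10.90 with APOB-Hs4 (0.82, adjusted p 0.112). Sterol genes spread widely between livers of a group. SQLE read 8.74, 7.41 and 7.96 with APOB-Hs1, 9.17, 7.51 and 7.24 with APOB-Hs4 and 8.04, 7.06 and 6.94 with APOB-Hs3. Liver 1 of each group was the highest of its group for SQLE, IDI1, FDPS, MVD, LSS and INSIG1.

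**Figure D5:**
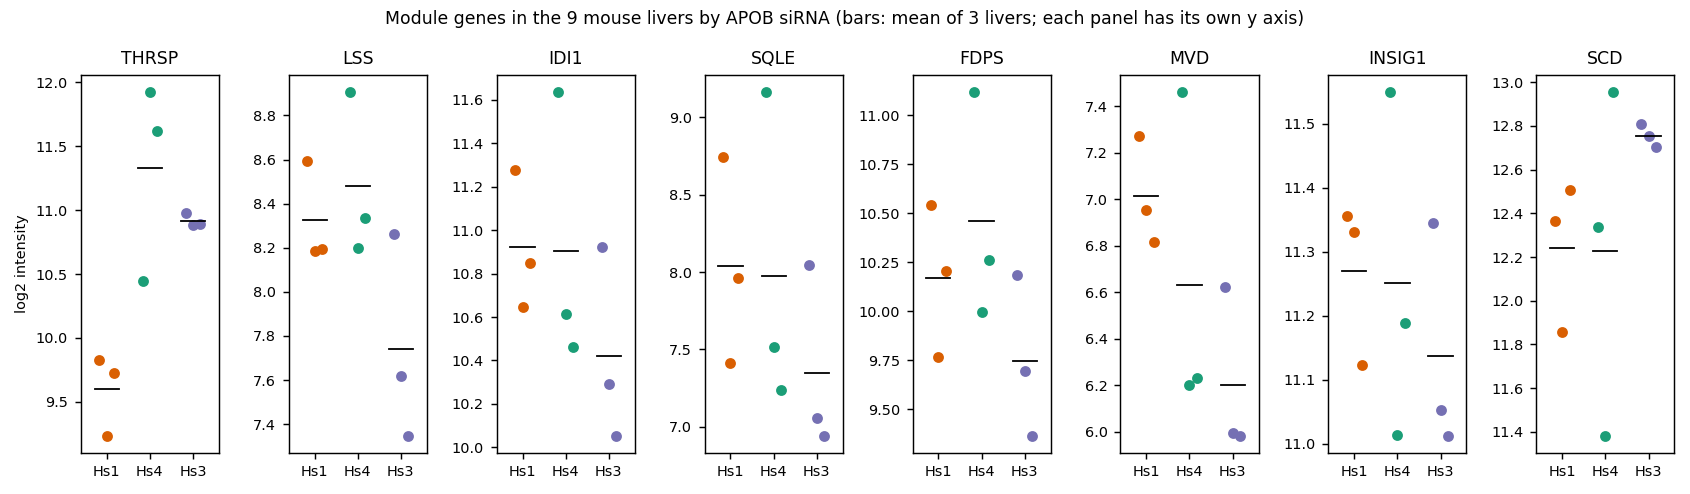
Log2 intensity of 8 lipid genes in the 9 mouse livers, grouped by siRNA (APOB-Hs1, APOB-Hs4 and APOB-Hs3), with 1 point per liver, the livers of a group running from 1 to 3 from left to right. Black bars are means of 3 livers, and each panel has its own vertical axis. For THRSP the APOB-Hs1 livers (9.24 to 9.83) lie below the other 6, and for SQLE the first liver is the highest in each group.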

How the data were processed

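The deposited values were 1 intensity per probe set and array, on a linear scale, which the authors summarised with RMA per the submitters' processing notes. Not given in the sources used here were its version and the genome build. Here the log2 of each deposited intensity was taken, and each gene was represented by the probe set with the highest mean over all arrays of its species. Models were fitted over all named genes with limma 3.58.1 in R 4.3.3 with the package data.table in version 1.17.8, with treatment and time as factors in the cell lines, siRNA in liver, a block for matched treatment and time between human lines, and siRNA between Hepa1-6 and liver. Calls are a Benjamini-Hochberg adjusted p under 0.05 over all genes of a contrast, two-sided, and the fit was checked on simulated data. Arrays limit the precision by their number.

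Named were called genes up to the 8 lowest and 8 highest per comparison, the 3 largest where fewer than 3 were called, up to 4 called genes of each other list, and HMGCS1, INSIG1, SREBF1, SREBF2, FASN and SCD throughout. Promoters of the 4 sterol branch genes with the largest change in HUH7 were shown, and SREBF2 was added after its motif was seen. The rule for the genes uses no measured value, but the genes and lists were chosen with earlier results of these data known. Marker lists covered hepatocytes, Kupffer, endothelial, stellate and cycling cells, cholangiocytes, adipocytes and red blood cells. Summaries and figures were made in Python 3.11.15 with pandas 2.3.3, numpy 2.4.6 and matplotlib 3.10.9. Same-numbered livers of different siRNAs had correlations of -0.144 to 0.188, so the numbers were not taken to pair them in the main fit. For SQLE, IDI1, FDPS, MVD, LSS and INSIG1, however, liver 1 was the highest of every group. A fit with the number as a block is given below. The alternatives tried were quantile normalization, averaging all probe sets of each gene, the brightest probe set within a system, leaving out dimmer genes, an intensity trend in the prior, and leaving out times, treatments, livers or widely spread arrays.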

Additional observations from a re-analysis of the deposited data

Results flagged for a closer look

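Outlying values were looked for in called genes, among the changes from 6 h to 48 h of single treatments and among the differences from mock at single times. Of 98 groups tested, 7 held one, where chance gives about 1 in 20. All 7 were changes from 6 h to 48 h. In HUH7 FASN changed by -0.04 (log2) under Apob-Mm2, where the other treatments ran from 0.32 to 0.60, and GGPS1 by -0.09 under APOB-Hs2, where the others ran from 0.09 to 0.20. In PLC/PRF/5 ACLY changed by -0.48 under APOB-Hs2, apart from 0.16 to 0.48 elsewhere, and EBP by -0.25 under APOB-Hs4, apart from 0.29 to 0.62. In Hepa1-6 FADS1 changed by 0.26 under APOB-Hs4 (others 0.62 to 0.67), TM7SF2 by 0.94 under APOB-Hs4 (others 1.54 to 1.64), and LPIN1 by 0.28 in mock (others 1.09 to 1.24).

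The change from 6 h to 48 h differed between HUH7 and PLC/PRF/5 for 13 genes in limma's test of the difference itself. HUH7 minus PLC/PRF/5 was -0.42 for ACAT2, -0.40 for FDFT1, -0.38 for DHCR7, -0.35 for NSDHL, -0.35 for SREBF2, -0.30 for SQLE, -0.29 for GGPS1 and -0.26 for FDPS. It was 0.24 for FADS2, 0.25 for SREBF1, 0.39 for AGPAT2, 0.57 for PNPLA3 and 0.91 for GPAM. The calls of FADS2 and SREBF1 were lost in 7 and 5 of 15 alternatives.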

How the results depend on the processing

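Of 160 counts of called genes recomputed under an alternative, 133 stayed within 1.5 times of the count reported and 27 did not, all in comparisons of siRNAs. Leaving out 1 treatment at a time, 48 h against 6 h called 26 to 31 genes in HUH7, 25 to 27 in PLC/PRF/5 and 27 to 31 in Hepa1-6. The 8 siRNA calls in HUH7 became 14 without the dimmer genes and 1 to 14 without 1 of the times. The 1 call of the human-named siRNAs against the others in HUH7 became 2 with quantile normalization, 4 with the mean of all probe sets, 2 without the dimmer genes and 1 to 3 without 1 of the times. In PLC/PRF/5 the 0 siRNA calls became 0 to 1 without 1 of the times (INSIG2 under RAD18 without 48 h and ACLY under APOB-Hs2 without 6 h), and the human-named contrast gave 1 without the APOB-Hs2 array of 48 h, an alternative added after seeing the data. The 3 calls in Hepa1-6 became 0 with the mean of all probe sets, 6 without the dimmer genes and 0 to 9 without 1 of the times. The 1 call in liver became 0 with quantile normalization and 0 to 5 without 1 of the livers, with 5 when liver 1 of APOB-Hs4 was left out. With the replicate number as a block in liver, THRSP stayed called (-1.73, adjusted p 0.0491) as the 1 call, and the block changed no other call. INSIG1 under APOB-Hs3 in HUH7 was called in every alternative run (-0.66 to -0.46, adjusted p at most 0.0102).

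Signs turned for few single genes. HUH7 minus PLC/PRF/5 was 0.14 for GGPS1, -0.22 for LSS and 0.002 for ME1 with the mean of all probe sets, and for GPAM it ran from -0.049 without 48 h to 0.617 without 12 h. Hepa1-6 minus liver was 0.072 for FDFT1, 0.12 for DHCR7, 0.20 for NSDHL, 0.21 for LPIN1 and 0.042 for IDI1 with the 48 h arrays of Hepa1-6 only, -0.071 for FASN and -0.21 for LSS with quantile normalization, and -0.37 for FASN and -0.086 for LSS with the mean of all probe sets. The causes were not tested. Over all 188 single results, 1774 of 1912 values kept their direction and call, 125 lost the call and 13 turned.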
